A study of Homo sapiens with 2 samples.

Results

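The genes described here belong to the solute carrier families SLC1, SLC3, SLC6, SLC7, SLC36, SLC38 and SLC43. They are called amino acid transporter genes here, and the cystine transporter gene SLC7A11 was left out. Among them are 10 genes of SLC6 carriers of neurotransmitters, taurine, betaine and creatine, and 2 SLC3 genes for partner chains of carriers. The rule went by name only and used no measured value, but it was set with earlier results of these data known. Probe sets were taken whose single symbol in the platform annotation was one of these families plus a number. This gave 135 of the 54675 probe sets of the array, for 55 of 19775 named genes, with 1 to 8 probe sets per gene. HEK293T, a line of human embryonic kidney cells with the SV40 large T antigen, was transfected by polyethylenimine with the plasmid pcDNA3.1-GFP (GFP control) or pcDNA3.1-IRX1::GFP, which encodes the homeobox transcription factor IRX1 together with GFP. Cells were taken 48 h later and sorted for GFP, so that all RNA came from GFP-positive cells, and 1 HG-U133 Plus 2.0 array per condition was analysed here, the control array and the IRX1 array. Expression from a transfected plasmid is transient, and cells of other lines or patients were not part of the comparison.

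Amino acids do not cross membranes freely, and cells take them up through carriers with overlapping substrates. SLC1 and most SLC6 proteins use the sodium gradient, and SLC36 proteins move amino acids with protons. Many SLC38 proteins carry glutamine and small neutral amino acids, and SLC43A1 and SLC43A2 are facilitators of large neutral ones. SLC7 proteins are either cationic amino acid transporters that work alone or light chains that reach the membrane bound to an SLC3 heavy chain. Several of these genes are known targets of ATF4, the transcription factor that raises amino acid supply under starvation and stress, and leucine and arginine brought in by such carriers are signals for the growth kinase mTORC1.

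Levels are given as the deposited MAS5 signal, a linear intensity brought to a common mean on each array by the authors, with a median over all probe sets of 171 on the control array and 195 on the IRX1 array. Background was the 90th percentile over 107 probe sets of olfactory receptors, genes of the nose, 143 on the control array and 179 on the IRX1 array. For each gene the probe set with the brightest average of the arrays was taken, and the gene was kept where this average reached 183, the 50th percentile of all probe sets. The log2 ratio is that of IRX1::GFP over GFP control, and differences of at least 2-fold were counted. A single array for each condition allows no test and no error between cultures, which limits the precision. Noise could be read only from probe sets of the same gene, whose log2 ratios had an SD of 0.49 across 5930 genes. It holds differences between transcript forms and leaves out differences between cultures. In sorted bulk cells, a change in the share of cells that use a gene and a change in RNA per cell cannot be told apart. The single probe set for IRX1 was under background at 33.1 on the control array and 57.0 on the IRX1 array. Whether it lies within the transfected sequence is not known, so the arrays do not check their labels, which are used as given. Of the markers set for HEK293T, VIM, KRT8, KRT18, NEFL, NEFM and PAX2, all were above background on the IRX1 array. Only PAX2 was not above it on the control array. KRT18, NEFL and PAX2, 3 of the 6, had measured ratios of 2-fold or more higher on the IRX1 array, beside 10.4% of all genes kept. PAX2 was kept through the IRX1 array alone, so it had to be higher there. VIM alone went the other way, from 38213 to 28168. Its second probe set went from 792 to 304, 2.60-fold lower. Of 4 marker genes of other cell types on the array, the leukocyte gene PTPRC was under background in both, and the collagen gene COL1A1 was at 631 on the control array and 2571 on the IRX1 array. The endothelial gene PECAM1 read 178 and 203, above background in both, and the liver gene ALB 219 and 135, above it on the control array alone. The part of these markers in the results was not tested. As a measure of RNA quality, the 3-prime over 5-prime signal ratio of the ACTB control probe sets was 3.23 on the control array and 1.64 on the IRX1 array, and that of GAPDH was 1.22 and 1.01. The part of RNA quality in the results was not tested.

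Of the 55 amino acid transporter genes, 32 passed the filter on low signals. Among these, 2 were at least 2-fold higher on the IRX1 array, the taurine transporter gene SLC6A6 and the proton-coupled transporter gene SLC36A1. With both signals above background, 2 were at least 2-fold lower, the glutamate transporter gene SLC1A3 and the glutamine transporter gene SLC38A1. The dopamine transporter gene SLC6A3 also had a measured ratio beyond 2-fold, but its signal on the IRX1 array was under background, so that its difference has only a lower bound of 1.65-fold. Counted by measured ratio alone, which takes SLC6A3 in and makes the lower genes 3, the shares among all 12193 genes past the filter were 10.4% higher and 5.34% lower, against 6.25% and 9.38% of the amino acid transporter genes. With counts of 2 and 3, these shares are not a result about the family. The other 27 genes were within 2-fold. A log2 ratio above 0 was found in 21 of the 32, beside 6600 of the 12193 among all genes. SLC1A7 and SLC6A11 passed the filter through the IRX1 array alone and had to be above 0. SLC3A1 and SLC6A3 passed it through the control array alone and had to be below 0. The median log2 ratio of the 32 was 0.21, beside 0.07 for all genes. When both arrays were centred on their median, the median of all genes moved from 0.07 to -0.12 and the transporter counts by measured ratio became 1 higher and 4 lower, since SLC36A1 came to lie within 2-fold and SLC7A1, a cationic amino acid transporter gene, at least 2-fold lower. Over all genes this centring gave 867 higher and 1088 lower in place of 1267 and 651.

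**Figure D1:**
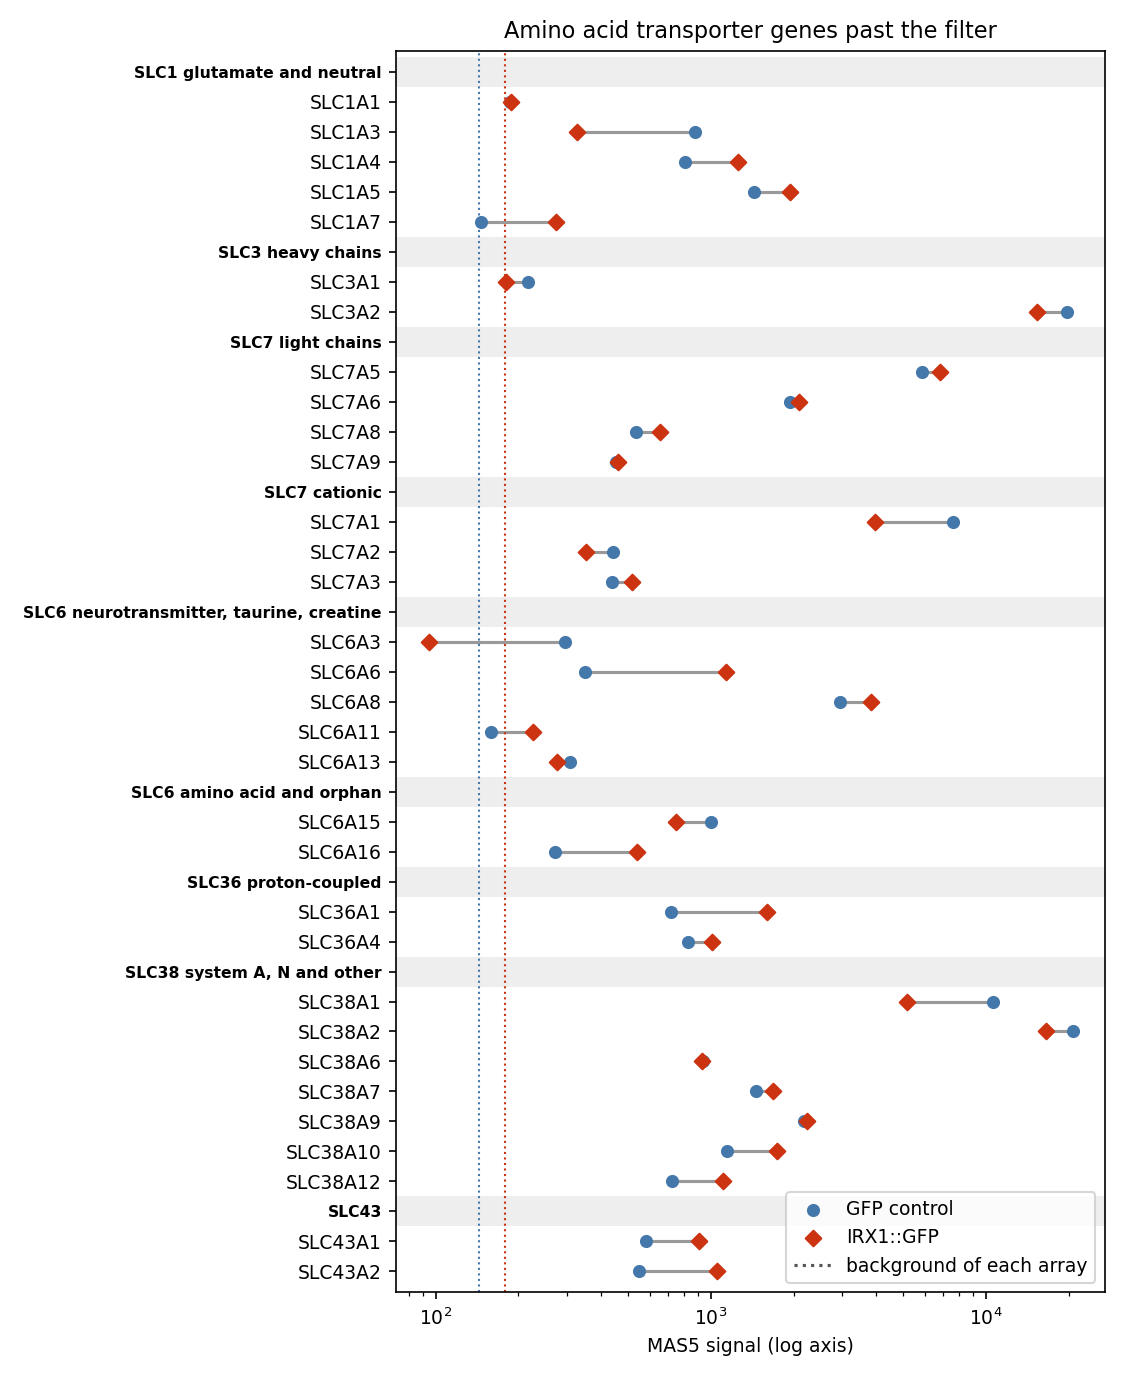
Each row is 1 of the 32 amino acid transporter genes past the filter, grouped by role, with its MAS5 signal on the control array (blue circle) and on the IRX1 array (red diamond) on a log axis, 1 array per condition, and the dotted lines are the background of each array, 143 and 179. SLC6A6 and SLC36A1 lie at least 2-fold to the right on the IRX1 array, SLC1A3 and SLC38A1 lie at least 2-fold to the left, and the IRX1::GFP signal of SLC6A3 lies under background, which leaves only a bound for its difference.

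Promoter sequences are shown for SLC38A1, SLC1A3 and SLC7A1, the 3 genes with the lowest log2 ratios among those past the filter whose windows held a motif searched. RefSeq windows of 300 bases, from 250 before to 50 after a transcript start on GRCh38.p14, were at hand for 42 of the 55 genes, with 64 windows in all. The motifs were TGATGNAA, the core of the amino acid response element that ATF4 and its partners bind, and ACANNTGT, a palindrome known as a binding sequence of fly Iroquois proteins. Both were searched on both strands. TGATGNAA was found in 6 of the 64 windows (9.38%) and in 3.62% of 35116 windows of all genes, and ACANNTGT in 4 (6.25%) and in 5.62%. Windows of the same gene can overlap, and a match describes letters and not a bound site. In the sequences below, which run 5-prime to 3-prime on the strand of the gene and end 30 bases after the start, capitals mark the matches. They lie at chr12:46266487-46266766 (minus strand), chr5:36596338-36596617 (plus strand) and chr13:29595659-29595938 (minus strand).
SLC38A1: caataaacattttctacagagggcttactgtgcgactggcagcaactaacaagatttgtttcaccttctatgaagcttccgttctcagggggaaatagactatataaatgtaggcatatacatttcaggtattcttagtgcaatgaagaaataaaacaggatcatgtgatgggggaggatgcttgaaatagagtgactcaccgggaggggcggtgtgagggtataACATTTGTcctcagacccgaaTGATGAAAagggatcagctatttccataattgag
SLC1A3: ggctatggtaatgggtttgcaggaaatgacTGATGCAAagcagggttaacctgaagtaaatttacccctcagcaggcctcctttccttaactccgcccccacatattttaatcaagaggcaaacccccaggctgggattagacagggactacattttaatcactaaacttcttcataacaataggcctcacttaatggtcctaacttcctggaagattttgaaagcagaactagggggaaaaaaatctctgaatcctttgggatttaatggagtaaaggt
SLC7A1: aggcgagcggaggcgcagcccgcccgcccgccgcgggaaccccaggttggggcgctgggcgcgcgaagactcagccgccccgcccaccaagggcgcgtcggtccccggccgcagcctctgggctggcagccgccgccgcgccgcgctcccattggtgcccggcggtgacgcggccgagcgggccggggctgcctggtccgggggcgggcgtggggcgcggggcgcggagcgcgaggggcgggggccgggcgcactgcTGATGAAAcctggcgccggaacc
The SLC38A1 window held both motifs, ACATTTGT from 25 bases and TGATGAAA from 4 bases before the start, without overlap, while the window of its other start held neither. That of SLC7A1 held TGATGAAA from base 8 after the start. In SLC1A3, TGATGCAA began at position -220 from 1 of 3 starts. The remaining matches to TGATGNAA were in SLC1A4, SLC1A5 and SLC3A2, and those to ACANNTGT in SLC6A16, SLC7A7 and SLC38A11. Neither window of SLC36A1 held a match.

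SLC1 proteins carry glutamate or small neutral amino acids. SLC1A3, the glutamate transporter of astrocytes also known as GLAST, had a signal of 877 on the control array and 326 on the IRX1 array, and was 2.69-fold lower. Its other probe set was under background in both arrays. The 2 neutral amino acid exchangers of the family went the other way, within 2-fold. SLC1A4 (ASCT1) read 805 and 1251, a log2 ratio of 0.64, and the next 2 probe sets by signal had ratios of 0.59 and 0.33. SLC1A5 (ASCT2), the main glutamine carrier of many growing cells, read 1440 and 1937 on its only probe set. SLC1A7, a glutamate transporter of the retina, read 146 and 274, close to background on the control array. It passed the filter through the IRX1 array alone, so it had to be higher there. Its second probe set differed less, at 181 and 184, and the third was under background in both arrays, at 128 and 164. SLC1A1, the glutamate transporter of neurons and kidney, was at 186 and 188, near background in both arrays. SLC1A2 and SLC1A6 were under background on all of their probe sets. Of the SLC1 genes, 5 of 7 thus passed the filter, with 1 at least 2-fold lower and none higher. Beside 10.4% higher and 5.34% lower among all genes past the filter, these counts are not a result about SLC1.

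The heavy chains SLC3A1 and SLC3A2 carry light chains to the membrane. SLC3A2 (CD98), the partner of most of them, had a signal of 19645 on the control array and 15284 on the IRX1 array, a log2 ratio of -0.36. SLC3A1, the partner of SLC7A9 in kidney tubules, read 216 and 181, hardly above background. It passed the filter through the control array alone, so it had to be lower on the IRX1 array. Of 7 light chain genes 4 passed the filter, and on the brightest probe set all of these were within 2-fold. SLC7A5 (LAT1), which takes up leucine in exchange for glutamine, was at 5868 and 6786, a log2 ratio of 0.21. This value is open to copies of the gene, since its probe set has a suffix for shared probes and SLC7A5P1 and SLC7A5P2 are near copies. SLC7A6 (y+LAT2) read 1941 and 2084, and SLC7A9 454 and 459. These differences are smaller than the SD between probe sets. For SLC7A8 (LAT2) the probe sets past the filter differed in size, and all were higher. The dimmest of them, at 182.6 on the control array, passed the filter through the IRX1 array alone, so it had to be higher there. The brightest read 535 and 655, the next 207 and 523, 2.53-fold higher, and the third 183 and 290. SLC7A7, SLC7A10 and SLC7A13 were under background in both arrays.

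The cationic transporters take up arginine and lysine. SLC7A1 (CAT1) was lower on all 3 of its probe sets past the filter, each within 2-fold. The brightest went from 7612 on the control array to 3945 on the IRX1 array, 1.93-fold lower, the second from 986 to 710 and the third from 374 to 242. SLC7A2 (CAT2) read 440 and 353, and SLC7A3 (CAT3) 439 and 515, both by less than the SD between probe sets. SLC7A4 and SLC7A14 were under background. No cationic transporter gene was at least 2-fold different as deposited, and SLC7A1 lay just within that limit with a log2 ratio of -0.95.

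SLC38A1 (SNAT1), which brings glutamine and alanine into cells with sodium, was lower on all 3 of its probe sets past the filter, and these gave nearly equal ratios. The brightest had a signal of 10573 on the control array and 5180 on the IRX1 array, the second 6310 and 3048, and the third 601 and 281, which is 2.04-fold, 2.07-fold and 2.14-fold lower. Its remaining probe set was under background in both arrays. SLC38A2 (SNAT2), the related system A carrier that is known to respond to amino acid shortage, was lower within 2-fold on all 3 of its probe sets. They read 20635 and 16496, 14738 and 10431, and 12958 and 9286, log2 ratios of -0.32, -0.50 and -0.48. The lysosomal members differed little. SLC38A9, which senses arginine for mTORC1, read 2176 and 2240, and SLC38A7, which exports glutamine from lysosomes, 1459 and 1679. All 4 probe sets of SLC38A7 were higher, by log2 ratios of 0.20 to 0.36. SLC38A10 read 1148 and 1737 on its brightest probe set, a log2 ratio of 0.60, and 315 and 842 on the next, which is 2.68-fold higher, so that the mean over both reached 2-fold. SLC38A12 read 722 and 1103, and SLC38A6 933 and 926. Of 11 SLC38 genes 7 passed the filter, with 1 at least 2-fold lower and none higher. Among all genes past the filter, 10.4% were higher and 5.34% lower, so these counts are not a result about SLC38.

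SLC6 proteins carry neurotransmitters, osmolytes and amino acids. SLC6A6, which takes up taurine, had the highest log2 ratio of the 32 genes, 1.71, with a signal of 349 on the control array and 1139 on the IRX1 array, 3.26-fold higher. This rests on 1 of its 5 probe sets, and the other 4 were under background in both arrays, the brightest of them at 30.2 and 162. SLC6A3, the dopamine transporter, read 294 on the control array and 94.2 on the IRX1 array. The latter was under background, so SLC6A3 was at least 1.65-fold lower, and since it passed the filter through the control array alone, it had to be lower on the IRX1 array. SLC6A8, the creatine transporter, read 2944 and 3818, and both further probe sets, whose suffix marks probes shared with other transcripts such as the copy SLC6A10P, had log2 ratios of 0.14 and 0.10. The GABA transporter genes SLC6A11, at 159 and 226, and SLC6A13, at 309 and 276, were dim. SLC6A11 passed the filter through the IRX1 array alone, so it had to be higher there. SLC6A15, a carrier of branched-chain amino acids and proline in neurons, was lower on all 4 of its probe sets past the filter, by log2 ratios of -0.20 to -1.03, and its brightest read 998 and 749. SLC6A16, whose substrate is not known, read 270 and 539, 1.99-fold higher and just within the limit. Of 18 SLC6 genes measured, 7 passed the filter.

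SLC36A1 (PAT1), which moves glycine, alanine and proline together with protons at the plasma membrane and in lysosomes, was 2.23-fold higher on its brightest probe set, at 715 on the control array and 1594 on the IRX1 array. Its other probe set was close to background and read 168 and 199, a log2 ratio of 0.25. That probe set passed the filter through the IRX1 array alone, so it had to be higher there. Averaged over both, SLC36A1 had a log2 ratio of 0.70. The probe sets of SLC36A4 (PAT4) pointed in opposite directions, 825 and 1009 on the brighter and 283 and 234 on the dimmer. Both SLC43 genes past the filter, facilitators of leucine and phenylalanine, were higher within 2-fold. SLC43A1 (LAT3) read 583 and 909.7, and SLC43A2 (LAT4) 550.2 and 1051, a log2 ratio of 0.93, with 291 and 463 on its second probe set. SLC43A3 was under background.

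**Figure D2:**
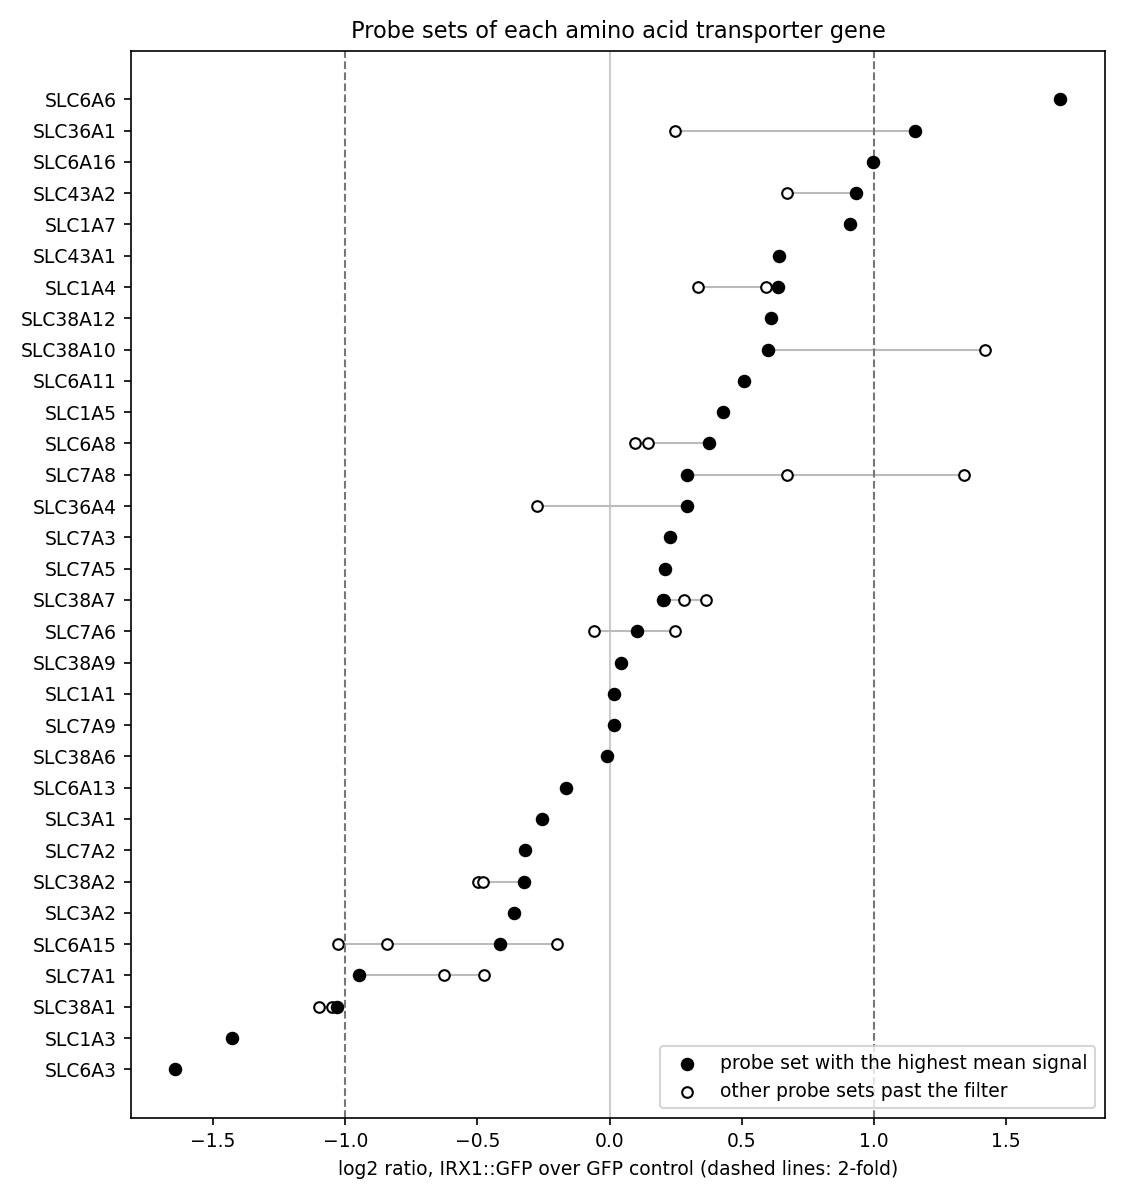
Log2 ratios of the IRX1 array over the control array (x) for the 56 probe sets past the filter, by gene (y), ordered by the brightest probe set of each gene (filled), with other probe sets open and dashed lines at 2-fold. The 3 probe sets of SLC38A1 lie close together beyond 2-fold lower, while those of SLC7A8, SLC36A1, SLC38A10 and SLC6A15 lie on both sides of the 2-fold line, and SLC6A3 is drawn at its measured ratio although its IRX1::GFP signal is under background.

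Probe sets of the same gene can be set against each other. Of the 32 genes, 13 had more than 1 probe set past the filter, and in 11 of the 13 all of them had the same sign, the exceptions being SLC7A6 and SLC36A4. In both SLC7A8 and SLC36A1, 1 agreeing probe set passed the filter through the IRX1 array alone and had to be higher there. The share of genes with the same sign among the 5930 was not counted, so 11 of 13 is not a result about the family. The SD between probe sets of the same gene was 0.31 over these 13 genes, beside 0.49 over 5930 genes, a difference that was not tested. At the level of probe sets, 4 of 56 were higher and 6 lower by a measured ratio of 2-fold or more, among 22633 probe sets past the filter of which 9.15% were higher and 6.02% lower. The 6 lower ones were 3 of SLC38A1 and 1 each of SLC1A3, SLC6A15 and, with its IRX1::GFP signal under background, SLC6A3.

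Of the 135 probe sets, 57 were above background in both arrays, 8 in 1 array and 70 in neither. The 23 genes that did not pass the filter included 20 with no signal above background in either array, whose 43 probe sets reached at most 135 on the control array and 169 on the IRX1 array. Among these are the glycine transporter genes SLC6A5 and SLC6A9, the noradrenaline and serotonin transporter genes SLC6A2 and SLC6A4, and SLC6A14, SLC6A18 and SLC6A19, which carry amino acids in epithelia, as well as SLC6A7, SLC6A12, SLC38A3, SLC38A4 and SLC38A11. The other 3 had a signal above background. SLC6A20, a carrier of proline in kidney and gut, went from 5.62 on the control array to 249 on the IRX1 array on 1 probe set, at least 1.74-fold higher, and from 27.9 to 135 on the other. SLC6A17, a vesicular carrier of neurons, had probe sets in opposite directions, 297 and 32.5 on the one and 49.1 and 215 on the other. SLC38A5, a glutamine carrier, read 163 and 196.

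**Figure D3:**
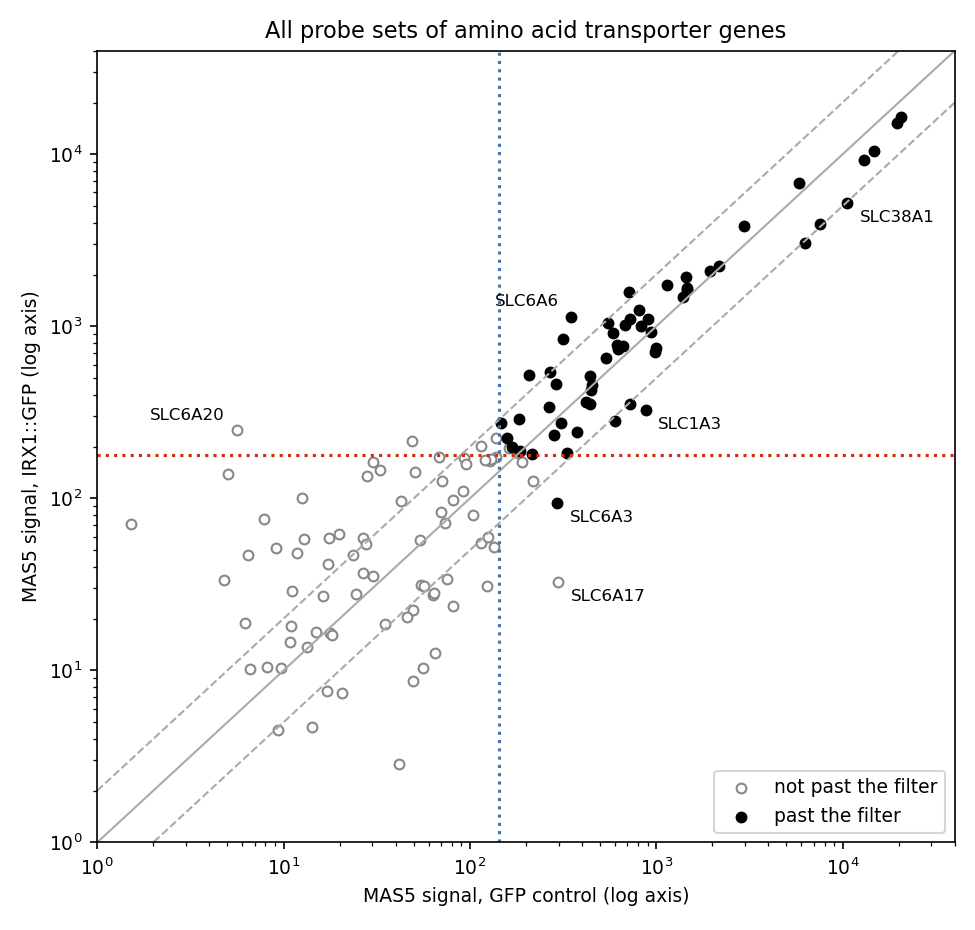
Each point is 1 of the 135 probe sets, with its signal on the control array (x) and on the IRX1 array (y) on log axes, filled where the mean reached 183, with dotted lines at the background of each array, a solid line at equal signals and dashed lines at 2-fold. Most points past the filter lie between the dashed lines, and the wide scatter at the lower left belongs to the 70 probe sets under background in both arrays.

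For 7 of the transporter genes that ATF4 is known to activate, the signals did not move one way. SLC6A9 was under background. Of the other 6, SLC1A4, SLC1A5 and SLC7A5 had log2 ratios above 0 and SLC3A2, SLC38A2 and SLC7A1 below 0, all within 2-fold, with a median of -0.06. ATF4 itself read 50058 on the control array and 60016 on the IRX1 array, a log2 ratio of 0.26.

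Other genes of amino acid handling were placed beside the transporters. Of 22 further carriers and accessory proteins, 17 passed the filter, with a median log2 ratio of 0.20. At least 2-fold higher were 2 of the 17 (11.8%), and none was lower. Among all genes past the filter, 10.4% were higher and 5.34% lower, so these counts are not a result about the list. SLC25A29, a mitochondrial carrier of basic amino acids, went from 317 to 830, and its second probe set past the filter from 193 to 451. SLC17A7, a vesicular glutamate transporter, read 169 and 457, while its other probe set read 211 and 233. The brighter one passed the filter through the IRX1 array alone, so it had to be higher there. The mitochondrial carriers SLC25A44, of branched-chain amino acids, and SLC25A22, of glutamate, were higher within 2-fold, with log2 ratios of 0.79 and 0.78. Those of SLC16A10, a carrier of aromatic amino acids, and of SLC25A38, a mitochondrial glycine carrier, were -0.41 and 0.42, but the other probe sets of SLC16A10 past the filter had log2 ratios of 0.28 and 0.71.

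Proteins that sense amino acids for mTORC1 and the kinase GCN2 were measured by 42 genes past the filter, with a median log2 ratio of 0.05. Of the 42, 4 (9.52%) were at least 2-fold higher and 2 (4.76%) lower. These shares are near those among all genes past the filter, 10.4% and 5.34%, and are not a result about the list. TFEB, a transcription factor of lysosomal genes held back by mTORC1, went from 349 on the control array to 1267 on the IRX1 array, 3.63-fold higher, and its other probe set from 181 to 375. This other probe set passed the filter through the IRX1 array alone, so it had to be higher there. LAMTOR4, a subunit of the lysosomal anchor of mTORC1, went from 3553 to 8315, and NPRL2, part of a complex that inhibits it, from 2031 to 4552 on the brighter of its probe sets, while the dimmer read 193 and 181. That dimmer probe set passed the filter through the control array alone, so it had to be lower on the IRX1 array. FNIP1 was 2.13-fold higher on its brightest probe set, at 3444 and 7339, but its other 4 probe sets were lower, with log2 ratios of -0.35 to -0.88. FNIP2, which like FNIP1 binds folliculin, was lower on all 4 of its probe sets, at 3361 and 1251 on the brightest. The dimmest, at 304 and 107, passed the filter through the control array alone, so it had to be lower on the IRX1 array. SESN1, a sestrin that restrains mTORC1, went from 3064 to 1389, and the related SESN3 from 2062 to 1145, within 2-fold. AKT1S1, an inhibitory part of mTORC1, read 1220 and 2436, just within 2-fold, and 217 and 474 on its second probe set. SAMTOR, the sensor of S-adenosylmethionine, read 3048 and 1642, and RPTOR, the scaffold of mTORC1, 431 and 254. The median of this list turned to -0.14 when the arrays were centred on their median.

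Amino acid synthesis and breakdown were covered by 23 genes past the filter, with a median log2 ratio of 0.17 that was -0.02 after median centring. Of the 23, 1 (4.35%) reached 2-fold as higher and 1 (4.35%) as lower. Among all genes past the filter, 10.4% were higher and 5.34% lower, and counts of 1 are not a result about the list. CTH, the enzyme that releases cysteine from cystathionine, went from 28079 on the control array to 3760 on the IRX1 array, 7.47-fold lower, and its second probe set from 7578 to 1115, 6.79-fold lower. This was the largest difference among the genes past the filter in these 4 lists. SHMT1, which makes glycine from serine, read 94.9 and 291, at least 2.03-fold higher. It passed the filter through the IRX1 array alone, so it had to be higher there. ASNS, the asparagine synthetase, read 19631 and 10814, within 2-fold, and ASS1, of arginine synthesis, 1368 and 2581. CBS, the enzyme that makes cystathionine, read 3019 and 5223 on its brightest probe set, a log2 ratio of 0.79, while the other probe sets past the filter had log2 ratios of 0.38 and -0.04. BCAT2, which transfers the amino group of branched-chain amino acids, read 1985 and 3288, and 185 and 195 on its dimmer probe set.

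**Figure D4:**
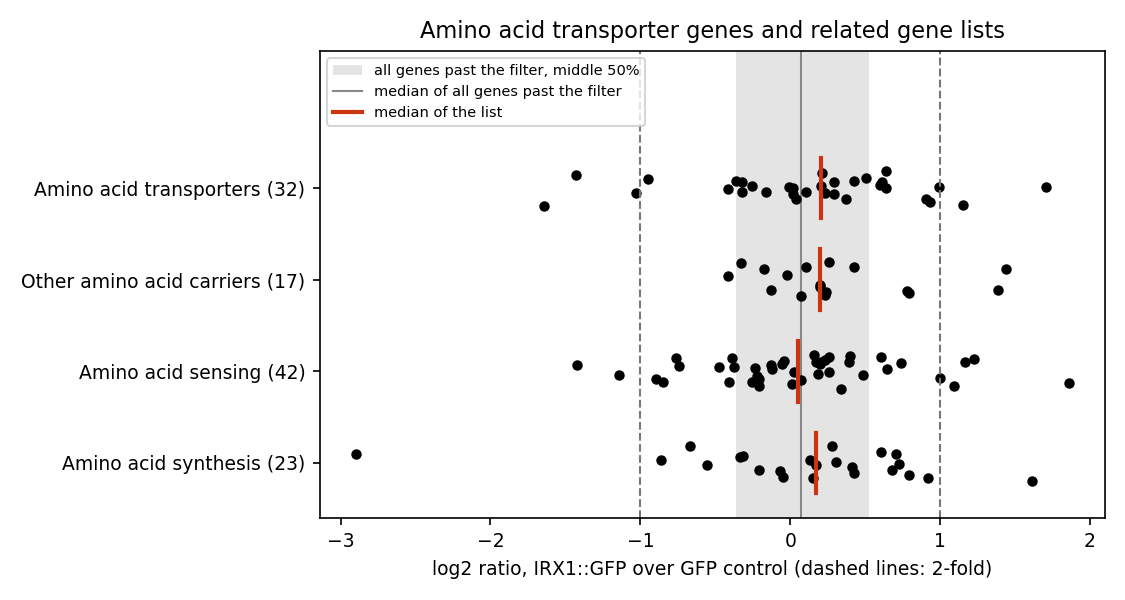
Points are log2 ratios of the IRX1 array over the control array for the genes past the filter of 4 lists (number of genes in brackets, vertical jitter for visibility), red lines the list medians, dashed lines 2-fold, and the grey band and line the middle 50% and the median of all 12193 genes past the filter. The medians of the 4 lists, 0.21, 0.20, 0.05 and 0.17, lie within the grey band, and CTH is the point at -2.90.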

How the data were processed

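One HG-U133 Plus 2.0 array per condition was analysed, and whether each is 1 of several cultures or a pool could not be settled from the sources. The authors deposited MAS5 signals, an intensity whose mean on each array, leaving out 2% at either end, came to 1000. The submitters' processing notes give the name MAS5 and neither version nor target. Of 54675 probe sets, 41091 had 1 gene symbol in the platform annotation, 1801 had several and were not named, and 3 of these list a gene of the families studied. Symbols were updated by gene identifier through the RefSeq gene table of GRCh38.p14 (41037 found), which changed none of the 55 names. No coordinates but those of the promoter windows were used.

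Genes were represented, filtered and called as stated above. No fold is given where both signals were at or under background, and a lower bound against background where 1 was. Named genes are all transporter genes past the filter, those with a signal above background that did not pass, and, of each other list, the members at least 2-fold different and up to 4 more with the largest ratios, with ATF4 chosen after its values were seen. The Iroquois motif and the genes whose promoters are printed were also chosen after values were seen. Members and lists were chosen with earlier results of these data known. Steps were tested on simulated data. Scripts ran in Python 3.11.15 with pandas 2.3.3 and numpy 2.4.6 for the values, statsmodels 0.14.6 for loess, and matplotlib 3.10.9 for plots. Alternatives were median centring, quantile normalization, loess (span 0.3), a mean signal at the 75th percentile or above background as filter, dropping the filter, raising low signals to the 50th percentile as a floor, averaging probe sets, only _at probe sets, and probe sets in place of genes.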

Additional observations from a re-analysis of the deposited data

Results flagged for a closer look

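The antisense RNA SLC38A2-AS1, matched by its gene identifier and not part of the comparisons above, gave a signal on the IRX1 array above its level on the control array. The control array gave 151 and the IRX1 array 394, a log2 ratio of 1.39. Its other probe set was under background at 21.5 and 67.2. Since 151 lies under the filter level of 183, the brighter probe set reaches that level through the IRX1 array alone and had to be higher there. A rise of 2-fold or more was measured for 10.4% of all genes kept, so this single value is not a result about the antisense RNA.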

How the results depend on the processing

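Leaving out an array would leave nothing to compare. No paired analysis was possible because the comparison holds a single array on either side. SLC38A1 was at least 2-fold lower in all 9 alternatives that give 1 value per gene, with log2 ratios down to -1.22. Quantile normalization and loess left it right at the limit, at -1.001 and -1.0009. The filters, the floor and only _at probe sets could not change its value, since they kept the same probe set and signals. SLC6A6 was at least 2-fold higher and SLC1A3 at least 2-fold lower in the 8 that kept them. Only median centring, quantile normalization and loess could change their values, since each has 1 probe set past the filter. Log2 ratios ran from 1.51 to 1.71 for SLC6A6 and from -1.62 to -1.43 for SLC1A3. SLC36A1 was higher in 7 of 9, the exceptions being median centring and the mean over probe sets, and the measured ratio of SLC6A3, whose IRX1::GFP signal was under background, was beyond 2-fold in 7 of 8, with a log2 ratio of -0.69 under the floor. Of all 182 values of single transporter genes under the alternatives, the other 181 moved by less than 0.49. Many of these could not move, since the alternative left the probe set and its signals unchanged.

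Median centring gave 1 transporter gene higher and 4 lower of 32, beside 7.12% and 8.93% of all genes, with a transporter median of 0.0138. Without a filter 6 were higher and 11 lower of 55, beside 17.5% and 10% of all genes, and most of these were under background. With the filter at the 75th percentile it was 1 and 1 of 16, beside 6.68% and 5.41% of all genes. As probe sets it was 4 and 6 of 56, beside 9.15% and 6.02% of all probe sets past the filter. Among all genes, the shares higher and lower were 10% and 4.35% for the mean over probe sets. They were 9.17% and 4.89% with the floor, and 10.2% and 5.83% with only _at probe sets. For the other carriers, median centring gave a median of 0.0091. No filter gave 4 of these higher and 2 lower of 22. The filter at the 75th percentile gave 0 higher of 11, and the mean over probe sets 1 higher of 17. For amino acid sensing, median centring gave 2 higher and 4 lower of 42, with a median of -0.14. Only _at probe sets gave 1 higher and 1 lower of 28. Counting probe sets gave 8 higher and 6 lower of 84, with a median of -0.0005. For amino acid synthesis, median centring gave 2 lower of 23 with a median of -0.0197, and no filter 2 lower of 25. There, the filter at the 75th percentile, the floor and only _at probe sets each left 0 higher, of 19, 23 and 13 genes. The last gave a median of 0.0009. Counted as probe sets, 2 were higher and 3 lower of 40, with a median of 0.0723. Such small counts are not a result about the lists. The remaining alternatives kept the counts within 1.5 times and the medians within 0.1. Differences below the signal of the olfactory receptor probe sets cannot be read.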
